A study of Mus musculus with 2 samples.

Results

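The T cell receptor and its coreceptors were followed through the leukocytes of brown adipose tissue (BAT) by means of 10 named genes, taken as a fixed list from the 32285 features of the deposited counts. Trac, Trbc1, Trbc2 and Trdc encode the constant parts of the alpha, beta and delta chains. Cd3d, Cd3e and Cd3g encode the CD3 chains, and Cd4, Cd8a and Cd8b1 the coreceptors. All 10 genes were found in both libraries. CD45+ cells had been sorted from BAT and captured with 10x 3′ chemistry in 1 library per condition. Both conditions used male C57Bl/6 mice of the genotype AdipoQ-CreERT2 ATGLfl/fl, labelled as 16 weeks old, although the study's text gives a younger age. Control mice received vehicle and AdipoΔ/Δ mice received tamoxifen, every 2 days for 1 week by intraperitoneal injection, followed by 2 weeks of rest. The Cre recombinase is driven by the adiponectin promoter of adipocytes, so the sorted cells themselves were not its target, and loss of ATGL in adipocytes and exposure to tamoxifen cannot be told apart.

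On most T cells, an alpha and a beta chain recognise a peptide held by an MHC molecule, whereas gamma-delta T cells use a gamma and a delta chain instead. Neither receptor reaches the cell surface or signals without the CD3 chains, which carry the signalling motifs together with the zeta chain (Cd247). CD4 binds MHC class II and marks helper and regulatory T cells. CD8, a dimer of an alpha and a beta subunit in most cytotoxic T cells, binds MHC class I. Lean adipose tissue is known to hold both alpha-beta and gamma-delta T cells, beside innate lymphocytes that lack a rearranged receptor.

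The control library held 2597 barcodes and 11327187 unique molecular identifiers (UMIs, 1 per captured transcript), and the AdipoΔ/Δ library 2381 barcodes and 12028844 UMIs. After barcodes with few genes or many mitochondrial UMIs were left out, 2279 and 2016 cells remained, with medians of 3678 and 3942 UMIs per cell. Only 4 barcode sequences occurred in both libraries. Levels are given as CPM, that is, the summed UMIs of a gene in a group of cells, scaled so that all genes of that group sum to 1000000. The counts come from the 3′ ends of transcripts, so levels were compared between groups of cells and not between genes. With 1 library per condition there was no replicate, and no test between conditions was made. Intervals in parentheses are exact 95% intervals that cover counting error only, and they are too narrow where a few cells hold most UMIs of a gene. How many mice were pooled per library is not given in the sources used here. The mRNA of the targeted gene, Pnpla2, stood at 37.1 CPM in control and 42.2 CPM in AdipoΔ/Δ leukocytes, which does not check the deletion, since it was made in adipocytes.

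The genes lie in 5 places of the mouse genome (GRCm38, GENCODE M21 annotation). Cd3g (9:44969572-44980431, minus strand), Cd3d (9:44981786-44987339, plus strand) and Cd3e (9:44998740-45009627, minus strand) lie side by side, with 1354 bases between Cd3g and Cd3d and 11400 between Cd3d and Cd3e. Cd8b1 (6:71322788-71337494) and Cd8a (6:71373427-71379173) are 35932 bases apart. Trdc (14:54142851-54148868) lies 71652 bases before Trac (14:54220521-54224206). Trbc1 (6:41538218-41539881) and Trbc2 (6:41546730-41548352) are separated by 6848 bases. Cd4 stands alone among the 10 (6:124864692-124888221, minus strand).

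Trbc1 and Trbc2 are near-identical copies, and a beta chain uses either of them, so how well their counts can be separated bears on every value below. Over 518 coding bases they differ at 23, an identity of 95.56%, and within the 375 coding bases of the first exon they differ at 1. The end of the coding sequence holds most differences. The stretch from coding base 399 to 518, read 5′ to 3′ from the annotated transcripts on GRCm38 with the 19 differing bases in capitals, shows where the copies can be told apart.
Trbc1: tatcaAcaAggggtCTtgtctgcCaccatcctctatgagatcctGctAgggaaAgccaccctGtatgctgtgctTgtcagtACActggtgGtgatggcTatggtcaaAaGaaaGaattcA
Trbc2: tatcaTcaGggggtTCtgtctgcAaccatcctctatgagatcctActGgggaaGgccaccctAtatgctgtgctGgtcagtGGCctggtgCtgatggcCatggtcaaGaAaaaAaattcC
Of the 464 windows of 55 bases in the Trbc1 coding sequence, 273 (58.84%) also occur in Trbc2. Of the 165 windows after the coding end, 0 do, and this is the part from which 3′ libraries read most. A read from the first exon that matches both copies is ambiguous, and its treatment in the deposited counts is not given in the sources used here.

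Cells were clustered without the 10 genes and without the T cell receptor segment genes. Classes such as T cell-like were then named from marker lists that hold none of the 10, so the levels of the 10 did not enter the class names. Clusters within a class are called by their leading genes, which can be among the 10. T cell-like cells made up 357 of 2279 cells (15.66%, 14.2 to 17.22) in the control library. In the AdipoΔ/Δ library they made up 247 of 2016 cells (12.25%, 10.85 to 13.76). Their median depth was 3487 and 3515 UMIs, but the deep end was not matched. Cells with 6670 UMIs or more were 69 of 357 in control and 82 of 247 in AdipoΔ/Δ mice. Summed levels lean on such deep cells, and their part in the ratios below was not tested. All 10 T cell markers were detected in T cell-like cells in both libraries, and at least 1 of the 3 CD3 genes in 94.4% and 93.12% of the cells. The T cell-like share moved with the clustering: it was 12.2% and 6.80% when only the first clustering step was used. Shares of sorted cells also depend on how many other leukocytes were captured.

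T cells held the highest level of 9 of the 10 genes in both libraries, and Trdc was the exception. For Trac, T cell-like cells stood at 435.3 CPM (402.9 to 469.7) in control and 549.4 CPM (510.4 to 590.7) in AdipoΔ/Δ mice. The next group in control cells was an unnamed cluster led by Ccl1 and Cd7, with 90.21 CPM of Trac. In the AdipoΔ/Δ library it was an unnamed cluster led by the cell division genes Hist1h1b and Top2a, with 293.7 CPM. Intervals of the first and second group were apart for all 9 genes in control cells. In AdipoΔ/Δ cells they were apart for 8 of them, and Cd4 was the one whose intervals met, at 51.72 CPM in T cell-like cells and 27.39 CPM in an unnamed cluster led by Mcpt4 and Ccl2, where it rested on 6 UMIs. Below the lymphoid groups, neighbours in the order could not be separated from each other by their intervals for Trac and Cd4.

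**Figure D1:**
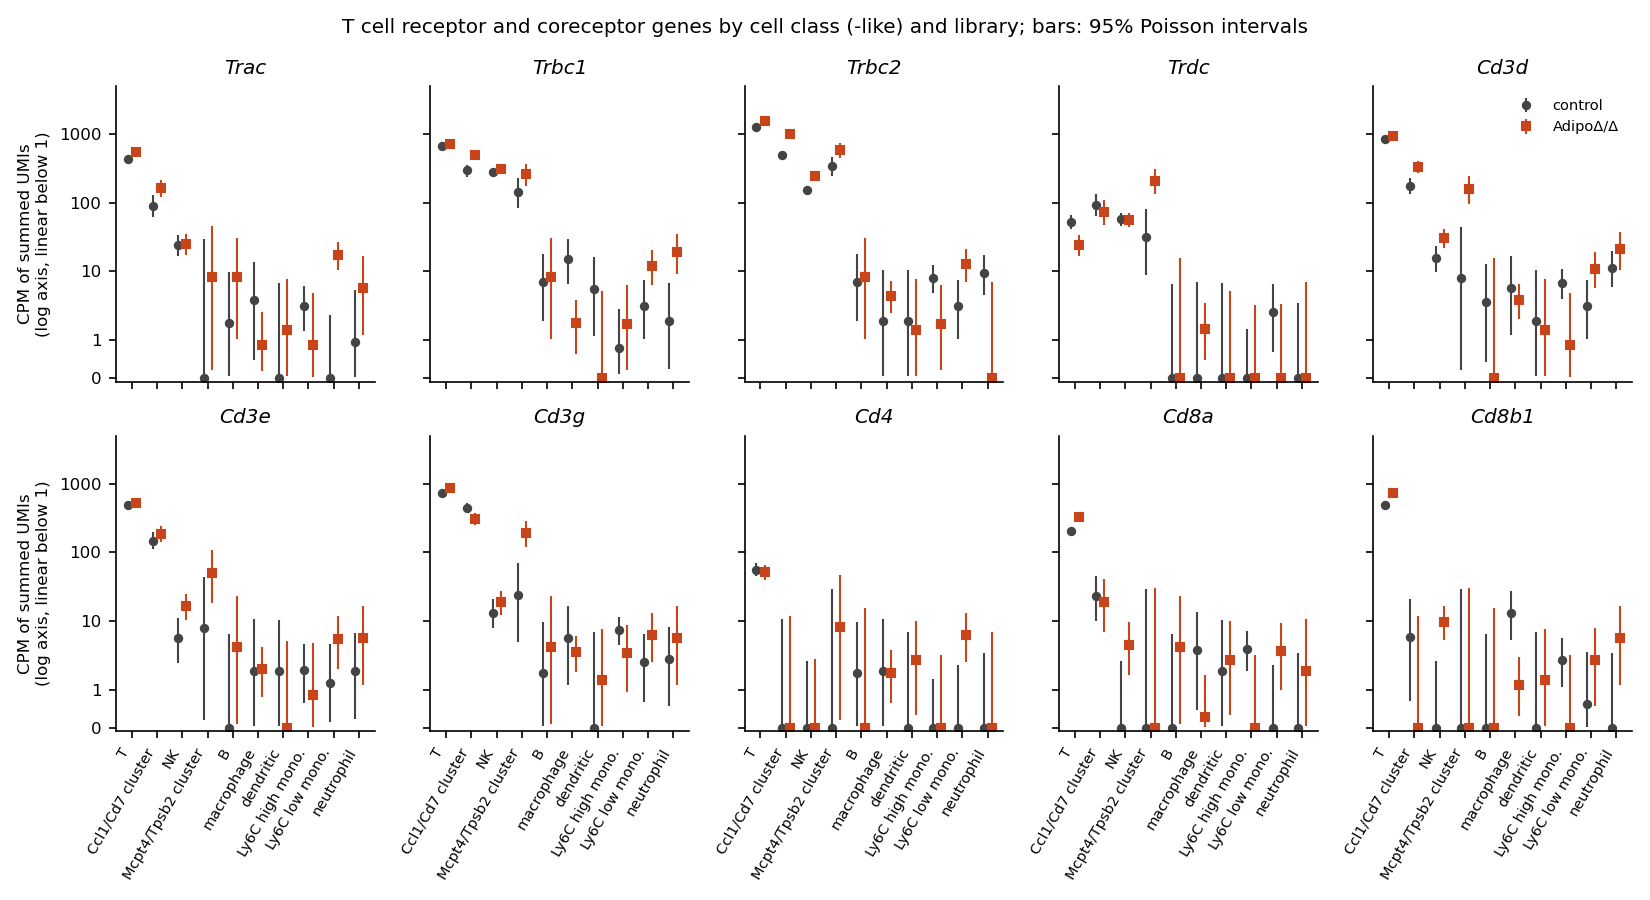
Level of the 10 genes (CPM, log axis that is linear below 1) in 10 groups of BAT leukocytes in the control and the AdipoΔ/Δ library, with 95% Poisson intervals as bars. T cell-like cells lead for every gene except Trdc, and NK cell-like cells carry Trbc1, Trbc2 and Trdc but hardly any CD3.

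Cells outside the lymphoid clusters gave the background of free RNA and stray cells. Among 1628 control and 1498 AdipoΔ/Δ cells with medians of 3271 and 3400 UMIs, each of the 10 genes was seen in between 0.0614% and 3.47% of cells. Macrophage-like cells, for instance, held 3.79 and 0.868 CPM of Trac. Transcripts of other cells were also seen in T cell-like cells. Lyz2, a lysozyme gene of myeloid cells, had a UMI in 36.7% of control and 54.3% of AdipoΔ/Δ T cell-like cells. Over whole marker lists, the summed level of 8 NK genes was 216.7 CPM in control and 621.4 CPM in AdipoΔ/Δ T cell-like cells, with all 8 detected in both. The 16 macrophage genes stood at 93.98 and 289.3 CPM, with 12 and 15 detected. The 7 neutrophil genes went the other way, with 388.3 and 95.19 CPM, and the 6 genes of dividing cells stood at 49.6 and 197.1 CPM. Of 5 adipocyte genes, Adipoq, Cidec and Ucp1 were at 0 in both. The part of these cells and RNAs in the differences between the libraries given next was not tested.

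The alpha and beta chain genes were higher in AdipoΔ/Δ T cell-like cells or level with control. Trac had 667 UMIs in control and 733 in AdipoΔ/Δ cells, a ratio of 1.262 (1.135 to 1.404), and the share of cells with a Trac UMI was 62.18% and 74.49%. After every cell was thinned to 1000 UMIs, which 322 and 221 cells could give, that share was 33.54% and 46.61%. Trbc2 stood at 1249 and 1558 CPM, a ratio of 1.247 (1.172 to 1.328), with a UMI in 88.52% and 87.85% of cells. Trbc1 stood at 661.2 and 716.6 CPM, a ratio of 1.084 whose interval held 1 (0.9911 to 1.185). Its share of cells went against its level, with 55.18% in control and 46.56% in AdipoΔ/Δ cells, so no order is read from it. Of the UMIs of both beta genes together, Trbc1 gave 34.61% in control and 31.5% in AdipoΔ/Δ cells.

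Of the CD3 genes, Cd3g and Cd3d had intervals above 1 and Cd3e did not. Cd3e stood at 493.4 CPM in control and 524.7 CPM in AdipoΔ/Δ T cell-like cells, and its ratio of 1.063 (0.9581 to 1.18) held 1. Cd3d, at 845.9 and 918.2 CPM, gave a ratio of 1.086 (1.003 to 1.175). Cd3g, at 727.1 and 874.7 CPM, gave 1.203 (1.107 to 1.307). The share of cells with a UMI ranged from 72.27% for Cd3e to 82.91% for Cd3d in control cells, and from 75.3% to 84.21% for Cd3e and Cd3g in AdipoΔ/Δ cells.

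Among the coreceptors, the summed levels of the CD8 genes were higher in AdipoΔ/Δ T cell-like cells and that of Cd4 was not. Cd8a, the CD8 alpha subunit, stood at 202.3 CPM in control and 331.3 CPM in AdipoΔ/Δ cells, a ratio of 1.637 (1.413 to 1.899). Cd8b1, the beta subunit, stood at 498.6 and 730.1 CPM, a ratio of 1.464 (1.33 to 1.612). A Cd8b1 UMI was seen in near-equal shares of cells, 146 of 357 in control and 106 of 247 in AdipoΔ/Δ mice. Cells with a Cd8b1 UMI held medians of 4 and 6.5 of them. Cd4 stood at 56.13 and 51.72 CPM, a ratio of 0.9214 with an interval from 0.6613 to 1.28. Cells with a Cd8a UMI made up 31.65% and 38.46%, or 13.35% and 21.27% after thinning. For Cd4 the shares were 17.37% and 17.41%, or 7.76% and 7.69% after thinning.

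These ratios are to be read against those of all genes. Over 2887 genes with at least 100 UMIs in T cell-like cells, the median ratio was 1.179, and for the 10 genes it was 1.143. A ratio of at least 1.5 was reached by 16.5% of the 2887 genes, and by 1 of the 10, Cd8a. A ratio of at most 1/1.5 was reached by 1.59% of genes, and by Trdc among the 10. An interval that lay wholly above 1 was found for 33.2% of genes and for 6 of the 10, and one wholly below 1 for 5.06% of genes and for Trdc. Mitochondrial and ribosomal protein genes gave 41.27% of the UMIs of control and 37.21% of those of AdipoΔ/Δ T cell-like cells. Without these UMIs the median over all genes was 1.102 and the Cd8a ratio 1.531. The intervals of Trac and Trbc2 held the median of all genes, 1.179, whereas those of Cd8a and Cd8b1 lay above it. The interval of Trdc lay below that median, and so, narrowly, did that of Cd3d (1.003 to 1.175).

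**Figure D2:**
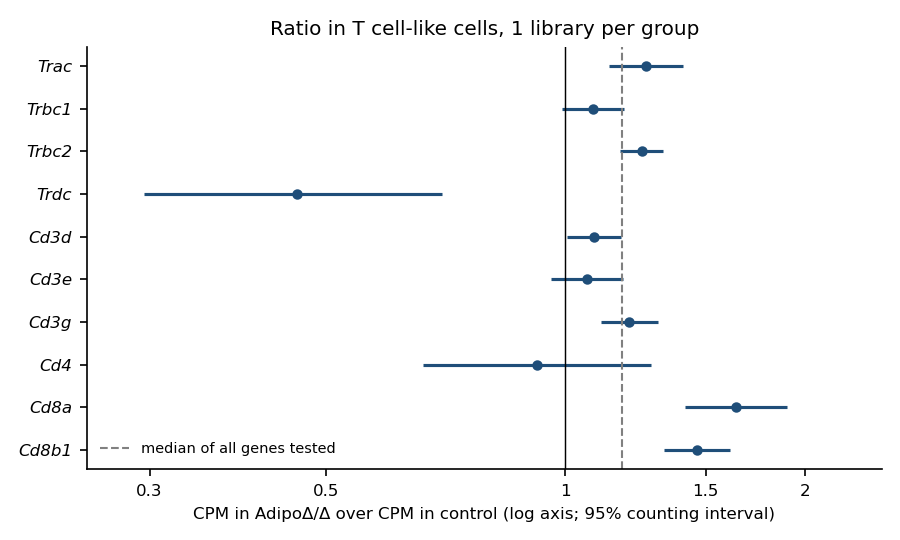
Ratio of AdipoΔ/Δ over control CPM (log axis) for the 10 genes in T cell-like cells, with 95% intervals from counting error as bars and the median ratio of all genes, 1.179, as a dashed line. Cd8a and Cd8b1 lie above the line with their whole intervals, and Trdc and, narrowly, Cd3d lie below it with theirs.

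The CD8 difference was not even across the T cell clusters. T cell-like cells formed 6 clusters, named here by their leading genes. In the cluster led by Cd8a, Cd8b1 and Cxcr6, which held 43 control and 80 AdipoΔ/Δ cells (12.04% and 32.39% of T cell-like cells), Cd8a stood at 202.6 CPM (131.1 to 299.1) in control and 543.3 CPM (479.1 to 613.6) in AdipoΔ/Δ cells. Cd8b1 stood there at 364.7 and 998.4 CPM. The control values rested on 25 Cd8a UMIs in 7 cells and 45 Cd8b1 UMIs in 8 cells. In AdipoΔ/Δ mice, 35 and 37 of the 80 cells had a Cd8a or a Cd8b1 UMI. Among its cells with 1 kind of coreceptor, 7 of 16 in control and 9 of 46 in AdipoΔ/Δ mice were Cd4-only. The part of this mix of cells in the levels was not tested. The median depth of this cluster was 1790 UMIs in control and 2867 in AdipoΔ/Δ cells. Without this cluster, an alternative chosen after seeing these levels, the ratio of Cd8a over all T cell-like cells was 1.055 and that of Cd8b1 1.138. The cluster was picked by the genes compared, so lower ratios without it are no independent evidence. In the naive-like cluster led by Dapl1 and Lef1, Cd8a stood at 165.6 and 289.2 CPM, a ratio of 1.746 (1.244 to 2.454). In the shallow cluster led by Gm12840 and Dapl1, Cd8a stood at 113.0 and 36.2 CPM, a ratio of 0.3203 whose interval held 1 (0.0363 to 1.319). Cd8b1 stood there at 259.9 and 90.49 CPM, a ratio of 0.3482 (0.108 to 0.8729). The AdipoΔ/Δ values rested on 2 Cd8a and 5 Cd8b1 UMIs in 29 cells, so no direction is read from them. In the cluster led by Lef1 and Bcl11b Cd8a stood at 268.0 and 232.8 CPM, with overlapping intervals. When both libraries were weighted to the same shares of the 6 clusters, the ratio was 1.407 for Cd8a, 1.395 for Cd8b1, 1.099 for Trac, 0.9733 for Cd3e and 0.8389 for Cd4. Under the mitochondrial limit of 2% that the study's methods name, 147 control and 90 AdipoΔ/Δ T cell-like cells remained, and the ratios of Cd8a, Cd8b1 and Trac were 4.684, 3.285 and 1.579.

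**Figure D3:**
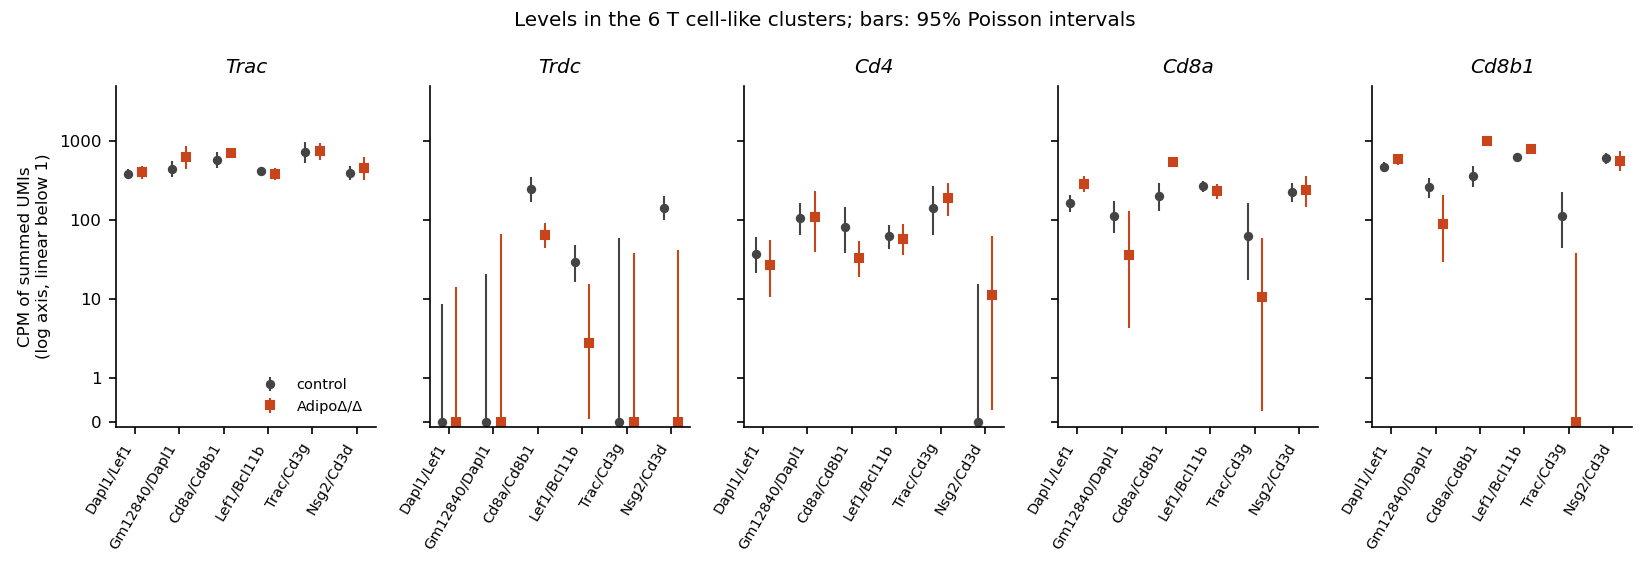
CPM of Trac, Trdc, Cd4, Cd8a and Cd8b1 in the 6 clusters of T cell-like cells, by library, with 95% Poisson intervals. Cd8a and Cd8b1 are highest in AdipoΔ/Δ cells of the Cd8a-led cluster, and Cd4 is highest in the cluster led by Trac and Cd3g, where Cd8a and Cd8b1 are lowest in both libraries.

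The clusters differed in their coreceptors. In the cluster led by Trac, Cd3g and Tnfrsf18, with 26 control and 32 AdipoΔ/Δ cells, Cd4 stood at 143.6 CPM (65.67 to 272.6) and 190.0 CPM (112.6 to 300.3). Cd8b1 stood there at 111.7 CPM in control cells, and no UMI of it was seen in AdipoΔ/Δ cells (0 to 38.95 CPM). The reverse held in the cluster led by Nsg2 and Cd3d, with 31 and 10 cells. Its control cells had no Cd4 UMI (0 to 15.68 CPM) and 607.8 CPM of Cd8b1. Of its control cells, 27 of 31 (87.1%) had a CD8 UMI and no Cd4 UMI. The cluster led by Lef1 and Bcl11b held both kinds, with 18 Cd4-only and 39 CD8-only cells of 74 in control. The Trbc1 ratio lay on either side of 1 across clusters. It was 0.4479 (0.2983 to 0.6668) in the cluster led by Trac and Cd3g, where 9 control and 7 AdipoΔ/Δ cells had a Trbc1 UMI. It was 0.625 (0.5216 to 0.7467) in the one led by Lef1 and Bcl11b. In the one led by Nsg2 and Cd3d it was 1.974 (1.433 to 2.709), with a Trbc1 UMI in 18 control cells and in 7 of 10 AdipoΔ/Δ cells. These intervals treat UMIs as independent, so no opposite directions are read from so few cells. In the other 3 clusters the interval held 1.

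Most T cell-like cells were of the alpha-beta kind by their transcripts. Cells with a Trac, Trbc1 or Trbc2 UMI and no Trdc UMI were 332 of 357 (93.0%, 89.84 to 95.42) in control and 232 of 247 (93.93%, 90.18 to 96.56) in AdipoΔ/Δ mice. Cells with a Trdc UMI and none of the alpha or beta genes were 0 of 357 and 0 of 247. A count of 3 cells would be a share of 0.8403% and 1.215%, which lies below the upper limit of the exact 95% interval. This split leaves out the cells with both, 2.241% of control and 1.619% of AdipoΔ/Δ cells, and those with neither, 4.762% and 4.453%. The rule matters for gamma-delta cells, because 8 of 8 control and 3 of 4 AdipoΔ/Δ T cell-like cells with a Trdc UMI also had a beta chain UMI. With Trac alone as the mark of alpha-beta cells, 61.06% of control and 73.68% of AdipoΔ/Δ cells had it without Trdc.

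Trdc came from few T cell-like cells. Within T cell-like cells, Trdc had 80 UMIs in 8 control cells and 32 UMIs in 4 AdipoΔ/Δ cells, and the 3 richest cells held 66.25% and 96.88% of these UMIs. The levels were 52.21 CPM (41.4 to 64.98) and 23.99 CPM (16.41 to 33.86), a ratio of 0.4594 (0.2949 to 0.7002). That interval treats UMIs as independent, although they came from so few cells, and no difference between the libraries is read from it. The ratio was 0.1545 with 30 principal components, 0.8125 (0.5681 to 1.156) with the receptor genes kept among the clustering features and 0.03353 without the Cd8a-led cluster. It was 0.1858 at equal shares of the 6 clusters, and 7.026 (0.8524 to 323.2) under the mitochondrial limit of 2%, where 1 control UMI stood against 6. Within the Cd8a-led cluster it was 0.2588. Cells with at least 3 Trdc UMIs, a CD3 UMI and no Trac UMI were 4 of 357 (1.12%, 0.3061 to 2.844) in control and 2 of 247 (0.8097%, 0.09821 to 2.894) in AdipoΔ/Δ T cell-like cells. Those 6 cells held between 5 and 25 Trdc UMIs, between 14 and 26 CD3 UMIs and between 4 and 19 UMIs of the gamma constant genes, and 1 of them had a CD8 UMI. Counted over every cell with a CD3 UMI, whatever its class, the same profile was met by 9 of 408 (2.206%) and 6 of 335 (1.791%) cells. The cells outside the T class lay mostly in unnamed lymphoid clusters. The cluster led by Ccl1 and Cd7 stood at 93.12 and 73.09 CPM of Trdc, and the cluster led by Mcpt4, Tpsb2 and Cpa3 at 31.69 and 207.4 CPM, the latter from 25 UMIs in 2 cells. The mast cell gene Cpa3 reached at least 10 UMIs in 1 cell per library of the latter cluster, and 5 of 9 ILC2 markers (Gata3, Il1rl1, Rora, Arg1 and Hlf) were seen in at least 10% of its cells, with 1497 and 1742 CPM summed over the list.

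NK cell-like cells held receptor transcripts without CD3. Their Trdc level was 57.11 CPM (45.42 to 70.89) in control and 56.36 CPM (44.33 to 70.64) in AdipoΔ/Δ mice, and 27.88% of 208 and 28.41% of 176 cells had a Trdc UMI. This share was larger than the 2.241% and 1.619% of the T class, at a median depth of 6470 and 6558 UMIs, and the share was 5.288% and 6.857% after thinning to 1000 UMIs. No NK cell-like cell had more than 4 Trdc UMIs. Trbc1 stood at 278.6 and 311.1 CPM and was seen in 65.87% and 76.14% of these cells, and Trbc2 at 151.1 and 242.7 CPM, a ratio of 1.606 (1.348 to 1.916). A Trbc1 or Trbc2 UMI without any CD3 UMI was found in 71.15% and 74.43% of NK cell-like cells, and in 2.521% and 4.049% of T cell-like cells. CD3 genes were seen in 5.288% and 9.659% of NK cell-like cells and Trac in 11.06% and 10.8%. A delta variable segment was seen as well: Trdv4 had a UMI in 16.83% and 22.16%, and Trdv2-2 in 15.38% and 19.32% of NK cell-like cells, whereas neither had a UMI in T cell-like cells. These shares lie far above the background of cells outside the lymphoid clusters, where Trdc was seen in 0.0614% of control and 0.2003% of AdipoΔ/Δ cells.

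**Figure D4:**
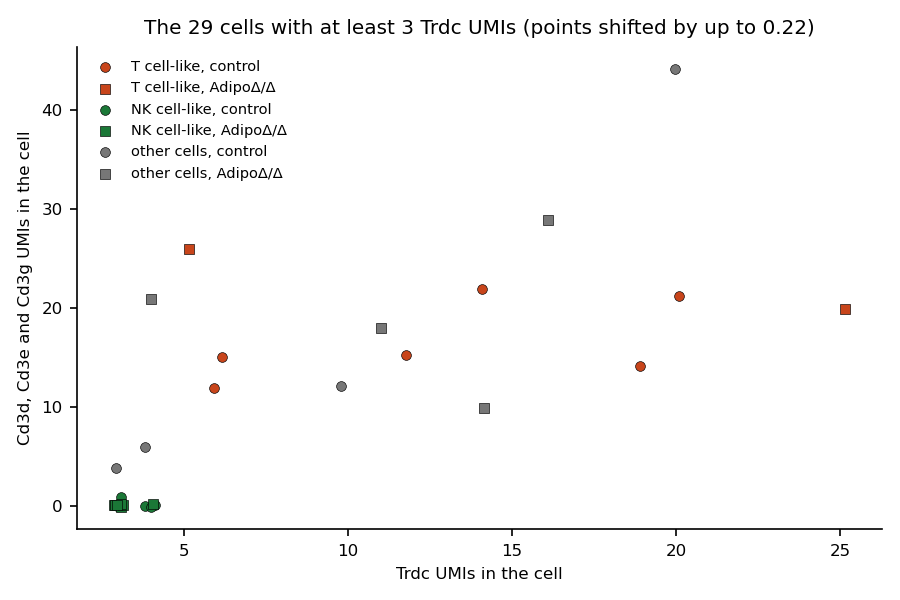
Trdc UMIs against the summed UMIs of Cd3d, Cd3e and Cd3g (axes in UMIs per cell) for the 29 cells of both libraries with at least 3 Trdc UMIs, marked by class and library. NK cell-like cells sit at 3 or 4 Trdc UMIs with 0 or 1 CD3 UMI, and T cell-like cells reach 25 Trdc UMIs with at least 12 CD3 UMIs.

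Cells with a CD8 UMI were more frequent than cells with a Cd4 UMI in both libraries. The count sets either of 2 genes against 1, and a cell with Cd4 held a median of 1 UMI of it. Of control T cell-like cells, 152 (42.58%, 37.39 to 47.89) had a CD8 UMI and no Cd4 UMI and 60 (16.81%, 13.08 to 21.1) the reverse. Of AdipoΔ/Δ T cell-like cells, 111 (44.94%, 38.63 to 51.37) were CD8-only and 41 (16.6%, 12.18 to 21.84) Cd4-only. Both coreceptors were seen in 2 cells of each library. Among cells with exactly 1 kind, the CD4 share was 28.3% (22.34 to 34.88) in control and 26.97% (20.1 to 34.76) in AdipoΔ/Δ mice, and the intervals overlapped almost wholly. The share moved with depth and with the filter on cells. It was 19.84% and 16.19% after thinning to 1000 UMIs, and 45.59% and 42.86% under the mitochondrial limit of 2%. Over every cell with a CD3 UMI it was 27.52% and 27.81%. Among the shallowest control cells, with 511 to 1781 UMIs, 13 of 91 were CD8-only and 13 of 91 Cd4-only. In AdipoΔ/Δ mice 12 of 60 such cells were CD8-only and 7 of 60 Cd4-only. Among the deepest cells, with 6670 UMIs or more, 55 of 69 control cells were CD8-only and 5 Cd4-only. In AdipoΔ/Δ mice these were 59 and 14 of 82.

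**Figure D5:**
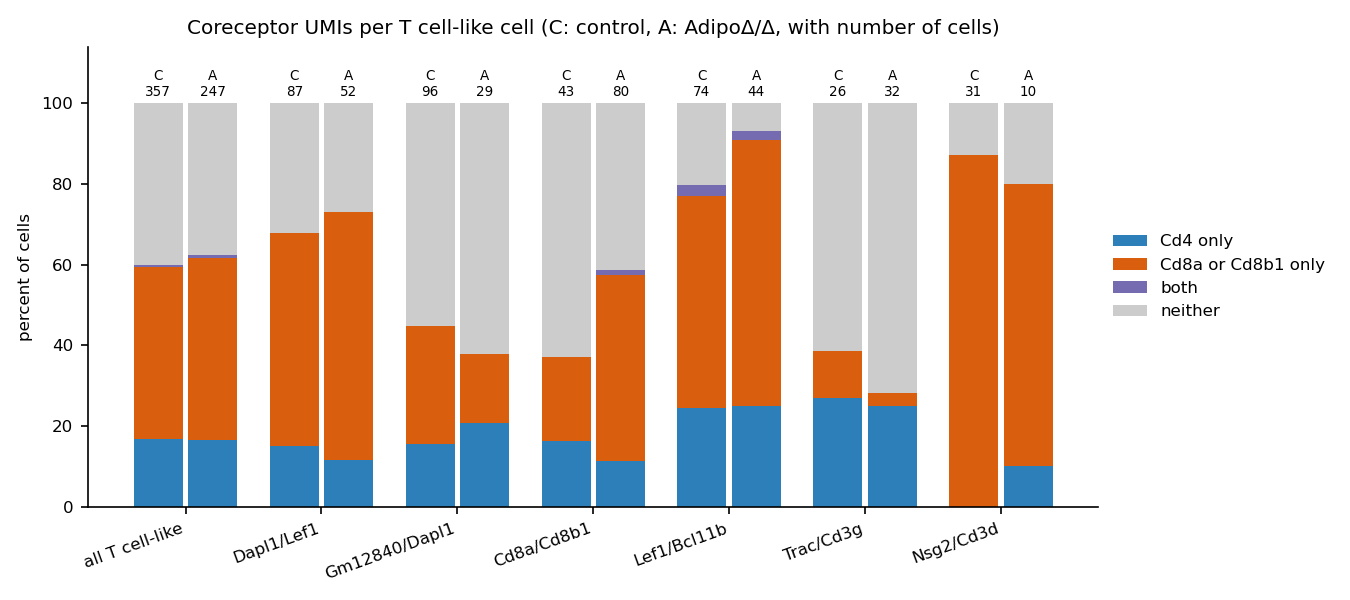
Share of cells (percent, stacked bars) with only Cd4, only CD8 (Cd8a or Cd8b1), both or neither among T cell-like cells and their 6 clusters, with C for control, A for AdipoΔ/Δ and the number of cells at each bar. The 2 libraries split alike over all T cell-like cells, and cells with neither coreceptor are the second largest part.

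Cells with neither coreceptor, 40.06% of control and 37.65% of AdipoΔ/Δ T cell-like cells, followed depth. Depth was cut into 4 bins at the quartiles of both libraries together, so the bins are not of equal size within a library. In control cells the share with neither was 71.43% in the shallowest bin (511 to 1781 UMIs) and 43.82% and 28.7% in the next bins. It was 11.59% in the deepest (6670 UMIs and more). In AdipoΔ/Δ cells the first of these shares was 68.33% and the third 23.26%. The lack of a coreceptor UMI therefore cannot by itself mark a cell without coreceptor at this depth. In the deepest bin, 8.537% of AdipoΔ/Δ cells also had neither. Whether any of the cells with neither lacked a coreceptor was not tested. Where enough UMIs were present, the 2 CD8 subunits came together. Among T cell-like cells with at least 4 UMIs of the pair, 86 of 94 (91.49%) in control and 83 of 88 (94.32%) in AdipoΔ/Δ mice had both Cd8a and Cd8b1. Cd8a gave 28.86% and 31.21% of the UMIs of the pair. The beta chain genes behaved otherwise, as 155 of 243 (63.79%) control and 96 of 175 (54.86%) AdipoΔ/Δ cells with at least 4 UMIs of Trbc1 and Trbc2 had both, 85 and 75 had Trbc2 alone, and 3 and 4 had Trbc1 alone.

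Genes that differed between CD8 and Cd4 cells within the T class were taken from 4289 genes with at least 20 UMIs in each library. A ratio of CD8 over Cd4 cells of at least 1.5 was found for 14.2% of genes in control and 17.3% in AdipoΔ/Δ mice, and one of at most 1/1.5 for 22.1% and 15.0%. By the mean of both log ratios, with a group at 0 set to 3 UMIs, the genes furthest to the CD8 side were Gzma, Klrk1, Ccl5, Fam241a and Klrd1. Gzma, which encodes granzyme A, had a ratio of 28.06 (4.943 to 1117) in control and 29.24 (12.46 to 90.36) in AdipoΔ/Δ mice. Klrk1, which encodes the activating receptor NKG2D, had 10.35 (1.766 to 417.8) and 13.51 (3.657 to 112.9), and the chemokine Ccl5 had 11.15 (8.456 to 15.02) and 8.412 (7.107 to 10.03). Klrd1, which encodes the receptor chain CD94, had 213 UMIs in control CD8 cells against 0 in Cd4 cells, and 207 against 11 in AdipoΔ/Δ mice. Gzma is also one of the NK markers. On the Cd4 side were Klrg1, Capg, Ikzf2, S100a4 and Ly6a. Ikzf2, which encodes Helios, a factor of many regulatory T cells, had a ratio of 0.2556 in control and 0.04075 in AdipoΔ/Δ mice. Klrg1, an inhibitory receptor of effector and tissue lymphocytes, had 0.07189 and 0.08248. Of the cytotoxic and CD8 list, 7 of 8 tested genes were at least 1.5 times higher in CD8 cells in each library, and of the CD4 lineage list 4 of 5 were lower. The cells were assigned by the coreceptor UMIs, and deeper cells were assigned more often.

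The other genes of the receptor pathway and of T cell states were counted from lists chosen with earlier results of these data known. Of 24 genes of the receptor complex and its signalling, 21 had at least 100 UMIs. Among them 2 were at least 1.5 times higher in AdipoΔ/Δ T cell-like cells and 1 lower, beside 16.5% and 1.59% of all genes. Intervals lay wholly above 1 for 15 of the 21, beside 33.2% of all genes, and wholly below 1 for 1, beside 5.06%. The kinase Zap70, which binds the phosphorylated CD3 and zeta chains, stood at 57.44 and 100.4 CPM, Ubash3a, a negative regulator of receptor signalling, at 43.08 and 75.7 CPM, and the kinase Txk at 236.3 and 153.7 CPM. Cd247, the zeta chain, had a ratio of 1.304 (1.077 to 1.579), and Lck, the kinase bound to CD4 and CD8, one of 1.17. Of the CD8 and cytotoxic list, 6 of 8 tested genes were at least 1.5 times higher and 0 lower. Gzmb, which encodes granzyme B, stood at 22.19 and 238.4 CPM, and the chemokine receptor Cxcr3 at 35.24 and 105.7 CPM. Of 6 tested genes of the CD4 lineage list, Icos, Ikzf2 and Maf were higher, with ratios of 1.906, 1.732 and 1.775. The rest were Gata3 (1.162), Izumo1r (0.9702) and Tnfsf8 (0.7279), and the intervals of all of these held 1.

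The naive list went the other way. Like the list of receptor signalling, it counted in naming the T class. Of its 12 genes, 0 were at least 1.5 times higher and 4 lower, beside 16.5% and 1.59% of all genes, and 10 had intervals wholly below 1, beside 5.06%. Ccr7, the receptor that guides T cells into lymph nodes, stood at 242.8 CPM in control and 141.7 CPM in AdipoΔ/Δ cells, S1pr1, which guides them out, at 219.3 and 131.2 CPM, and Lef1 at 431.4 and 294.6 CPM. Of 15 genes of gamma-delta and innate-like T cells only Cxcr6 had enough UMIs, with 22.84 and 99.69 CPM. These lists moved together with the clusters. The Cd8a-led cluster made up 12.04% of control and 32.39% of AdipoΔ/Δ T cell-like cells, and the NK marker list stood higher in AdipoΔ/Δ T cell-like cells, as given above. Their part in these list counts was not tested.

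Finally, genes whose levels followed the receptor genes were ranked over 38 points, which were 19 clusters in both libraries, by Pearson's r of log2(CPM + 10). The points share libraries and differ in depth, so the values are a description. For Cd3e the nearest genes were Cd3g (r = 0.9895), Cd3d (0.9837), Trac (0.9675), Bcl11b (0.9224) and Trbc2 (0.92). For Cd4 they were Cd6 (0.9057), Cd5 (0.9043) and Izumo1r (0.8977), and then Trac and Cd3e. Cd8a was nearest to Cd8b1 (0.9678), Themis (0.9103), Trat1 (0.8804), Lcn4 (0.8803) and Dapl1 (0.879). Trdc stood apart from the other receptor genes, with Cysltr2 (0.8967), Gprin3 (0.8219), F2r (0.8186), Gm43065 (0.8134) and Camk2b (0.8105) as its nearest.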

How the data were processed

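Single-cell RNA was measured in 1 control and 1 AdipoΔ/Δ library of CD45+ BAT cells. The authors aligned reads to mm10 and made UMI counts per gene and barcode with Cell Ranger 4.0.0, and the deposited counts are raw. A barcode was taken as a cell with 200 or more detected genes and a mitochondrial share of UMIs of 10% or less. The methods name a limit of 2%, which 51.44% of control and 37.72% of AdipoΔ/Δ barcodes pass. Cells were normalised with sctransform 0.4.2, integrated by anchors and clustered in Seurat 5.3.0 (R 4.3.3) with 1986 features, 20 principal components and a resolution of 1.0. Receptor and coreceptor genes were left out of the features. After seeing the first 18 clusters, 6 of them with at least 5 of 10 T cell markers were pooled (1169 cells) and clustered again into 11. To name a cluster, a list needed at least 3 markers in at least 10% of its cells and a mean z-score over clusters of at least 0.5. The list with the highest score was used if at least 1 marker was among the cluster's top 10 genes. That top 10 left out the 10 genes of interest. For the T class, genes of the naive and receptor signalling lists also counted among the top 10. A cluster whose top 3 genes hold a marker of another class and none of its own stays unnamed, except in the T class. This rule was added after seeing the data.

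Intervals are Clopper-Pearson for shares, Poisson for CPM and conditional binomial for ratios (SciPy 1.17.1, Python 3.11.15), at 95%. They were tested on simulated data with independent counts, so this test does not cover UMIs that sit together in few cells. Where a count of 0 is given with the level or share that 3 counts would make, that value lies below the upper limit of the exact 95% interval. Ratios over all genes needed at least 100 UMIs in both libraries together. Scrublet in Scanpy 1.11.5 called 8 of 2279 and 8 of 2016 cells doublets (0.351% and 0.3968%), too few to have worked, and all cells were kept. The genes named are the 10 of interest, the genes of the companion lists with the highest and lowest ratios with others of those lists chosen after their values were seen, the 5 genes nearest in pattern, the 5 per side with the largest ratio of CD8 over Cd4 cells (geometric mean of both libraries, with a group at 0 set to 3 UMIs, a choice made after seeing the data), and the leading genes of clusters. Genes and lists were chosen with earlier results of these data known. Other alternatives varied the filters, clustering, depth and scaling.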

Additional observations from a re-analysis of the deposited data

Results flagged for a closer look

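T cell receptor transcripts were also present in the barcodes left out of the cells, which no comparison used. The 3 CD3 genes together stood at 95.81 CPM in 318 left-out control barcodes and at 37.9 CPM in 365 left-out AdipoΔ/Δ barcodes. A count of 3 UMIs would be 5.226 and 4.211 CPM there. A CD3 UMI was seen in 19 control (5.975%) and 16 AdipoΔ/Δ barcodes (4.384%), whose group medians were 1096 and 1315 UMIs. Whether they are T cells with many mitochondrial UMIs was not tested.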

How the results depend on the processing

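Of 942 values recomputed under an alternative, 702 stayed within their counting interval, 239 moved beyond it and 1 ratio whose interval excluded 1 changed direction. That was the Trdc ratio, 7.026 under the mitochondrial limit of 2%. The ratios of Cd3e, Cd4 and Trbc1, whose intervals held 1, lay on either side of 1 across the alternatives. Under that limit the summed level of the 10 genes was 4700 CPM in control and 6679 CPM in AdipoΔ/Δ T cell-like cells (5221 and 6279 in the report's setting), their ratio 1.421, the T cell-like share 11.26% and 10.12% and the CD4 share 45.59% and 42.86%. With a limit of 5% the share of control T cell-like cells with a CD3 UMI was 97.17%, and with at least 500 genes per cell it was 98.34% and 96.8%. The T cell-like share was 10.66% in AdipoΔ/Δ mice at a resolution of 0.5, 12.29% in control at 2.0, 10.76% in AdipoΔ/Δ mice with 30 components, 10.45% there with suspected doublets left out and 15.27% there among cells other than macrophage-like ones. Suspected doublets were the Scrublet calls and the T cell-like cells with at least 2 Cd79a or Lyz2 UMIs. The second rule was applied to T cell-like cells only and met 32 control and 40 AdipoΔ/Δ cells. It lowers the T cell-like share by design. Genes of the 10 past 1.5-fold, counted where a gene had at least 100 UMIs, were 1 in place of 2 with the receptor genes kept among the features or doublets left out, and 0 without the Cd8a-led cluster or with the first clustering step only. In the last 3 of these settings Trdc had fewer than 100 UMIs and was not counted, with ratios of 0.6216, 0.03353 and 0.04708. Without mitochondrial and ribosomal protein UMIs the summed levels were 8890 and 9999 CPM and their ratio 1.125. Thinned to 1000 UMIs, cells with a CD3 UMI were 84.47% and 87.78%, alpha-beta cells 87.58% and 86.43% and the CD4 share 19.84% and 16.19%, and at 2000 UMIs the CD4 share was 21.83% and 19.47%. With at least 2 UMIs per gene these were 82.35% and 84.21%, 84.03% and 87.45%, and 15.11% and 13.16%. With Trac alone as the alpha-beta mark, alpha-beta cells were 61.06% and 73.68% and control gamma-delta cells 1.12%. With any Trdc UMI as the mark, gamma-delta cells were 2.241% and 1.619%. Among all cells with a CD3 UMI, alpha-beta cells were 88.73% and 84.48%. As a share of all T cell-like cells, Cd4-only cells were 16.81% and 16.6%. Of the alternatives chosen after seeing the data, leaving out the Cd8a-led cluster gave a CD3 share of 96.82% in control, a summed level of 5461 CPM in AdipoΔ/Δ cells and a ratio of 1.058. The first clustering step alone gave CD3 shares of 98.2% and 97.81%, T cell-like shares of 12.2% and 6.796%, alpha-beta shares of 95.68% and 98.54%, a summed AdipoΔ/Δ level of 5452 CPM and a ratio of 1.06. The causes were not tested. No paired analysis was possible because each condition had 1 library and no test was made, and for the same reason no replicate could be left out. At this depth 40.06% of control and 37.65% of AdipoΔ/Δ T cell-like cells could not be placed by coreceptor.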

Other observations

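Gene segments of the T cell receptor were seen in few cells. Any alpha variable segment had a UMI in 10.92% of control and 12.96% of AdipoΔ/Δ T cell-like cells, and any beta variable segment in 14.29% and 12.55%. Trav16n, in 4 cells of each library, was the alpha segment seen in most cells.

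The Ccl1 and Cd7 cluster, with 38 control and 36 AdipoΔ/Δ cells, was left without a name and held receptor transcripts of several kinds. Trbc2 stood there at 486.0 and 985.1 CPM, Cd3g at 451.1 and 311.4 CPM and Trac at 90.21 and 162.1 CPM. No Cd4 UMI was seen in it in either library, which allows at most 8.73 and 9.533 CPM. Gamma constant genes had a UMI in 4.482% of control and 4.453% of AdipoΔ/Δ T cell-like cells. Both a gamma constant and a Trdc UMI were carried by 1.401% and 0.8097%. Of the 16 control and 11 AdipoΔ/Δ cells with a gamma constant UMI, 6 and 6 also carried a Trac UMI. Of the Trac UMIs of the whole library, T cell-like cells held 88.93% in control and 74.19% in AdipoΔ/Δ mice, and the cluster led by Hist1h1b and Top2a held 13.77% in the latter.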
